A study of Mus musculus with 10 samples.

Results

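The genes described here are the nuclear end of canonical Wnt signalling and the R-spondins that raise its output, measured at E14.5 in mouse secondary palate. They were chosen by name: Lef1, Tcf7, Tcf7l1, Tcf7l2, Axin2, Nkd1, Rspo1, Rspo2, Rspo3 and Lgr5, with every probe set whose platform annotation gives 1 gene symbol belonging to 1 of them. That rule gave 21 of the 45101 probe sets on the array, for 9 of the 10 genes, and Tcf7 was not analysed here. The mutant group had 5 arrays of Tgfbr2fl/fl;Wnt1-Cre embryos, in which Cre driven in the neural crest deletes both floxed alleles of the type II TGF-beta receptor. The control group had 5 arrays of Tgfbr2fl/fl embryos that carry the same floxed alleles and no Cre, on the same labelled C57B6 strain. The sample titles call these controls Tgfbr2 wildtype. Palate epithelium, skeletal muscle and the endothelium of vessels are not made by the neural crest and keep the receptor, so the arrays mix deleted and undeleted cells. As the controls lack the transgene, effects of Wnt1-Cre itself and of the deletion cannot be told apart; the Wnt1 probe set was dim, with mean log2 values of 4.22 ± 0.16 in the mutants and 4.06 ± 0.13 in the controls (SD, n = 5 each). The study's design text asks which genes depend on TGF-beta while the palate forms.

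In canonical Wnt signalling a ligand at the cell surface stops the breakdown of beta-catenin, which then enters the nucleus and joins a DNA-binding factor of the TCF/LEF family. Axin2 and Nkd1 are transcribed in answer and feed back as inhibitors, so both are widely read as reporters of the pathway. R-spondins are secreted proteins that bind Lgr receptors and keep Wnt receptors from being removed from the membrane, and loss of Lef1 or Rspo2 in mice disturbs craniofacial development.

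The authors computed the values with RMA and deposited them on the log2 scale with 1 decimal, so a difference of 1 unit is a 2-fold change and steps of 0.1 limit small differences. Array medians were 6.4 or 6.5. A probe set was counted as dim when its mean over the 10 arrays was below 5.76, the 40th percentile of all probe sets, and 3 of the 21 were dim. A probe set was called when limma's adjusted p over all 45101 probe sets was under 0.05. Control replicate 1 stood apart: its score on the leading principal component was 80.4, against -21.0 to 2.68 for the other arrays, and it was over 2-fold away from its fellow controls' mean at 1784 probe sets, against 50 to 165 for any other array within its group. None of the 15 measured markers of palatal mesenchyme, Prrx1 and Pdgfra among them, was dim. The brightest Tgfbr2 probe set read 10.7 to 10.8 in mutant and 10.5 to 10.8 in control arrays; the sources used here do not place it relative to the floxed exons, so it is no check of the deletion. No label states that samples are of different embryos. The p-values therefore set the group difference against the spread among these samples, which may not be the spread among embryos. The number of arrays limits the precision.

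Of the 21 probe sets, 2 were called and both were lower in mutant palate: 1 of Lef1 and 1 of Rspo3. None was called higher. Over the whole array 3.25% of probe sets were called, 2.18% lower and 1.08% higher. The log2 fold changes of the 21 ran from -0.52 to 0.44 with a median of 0.04, against a median of 0.00 over all probe sets. In 5 of the 21 the unadjusted p was under 0.05, against 19.6% of all probe sets. The arrays of the groups did not overlap for 1 of the 21, the called Rspo3 probe set, against 4.86% of all probe sets. Both target genes that report on the pathway, Axin2 and Nkd1, were uncalled.

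**Figure D1:**
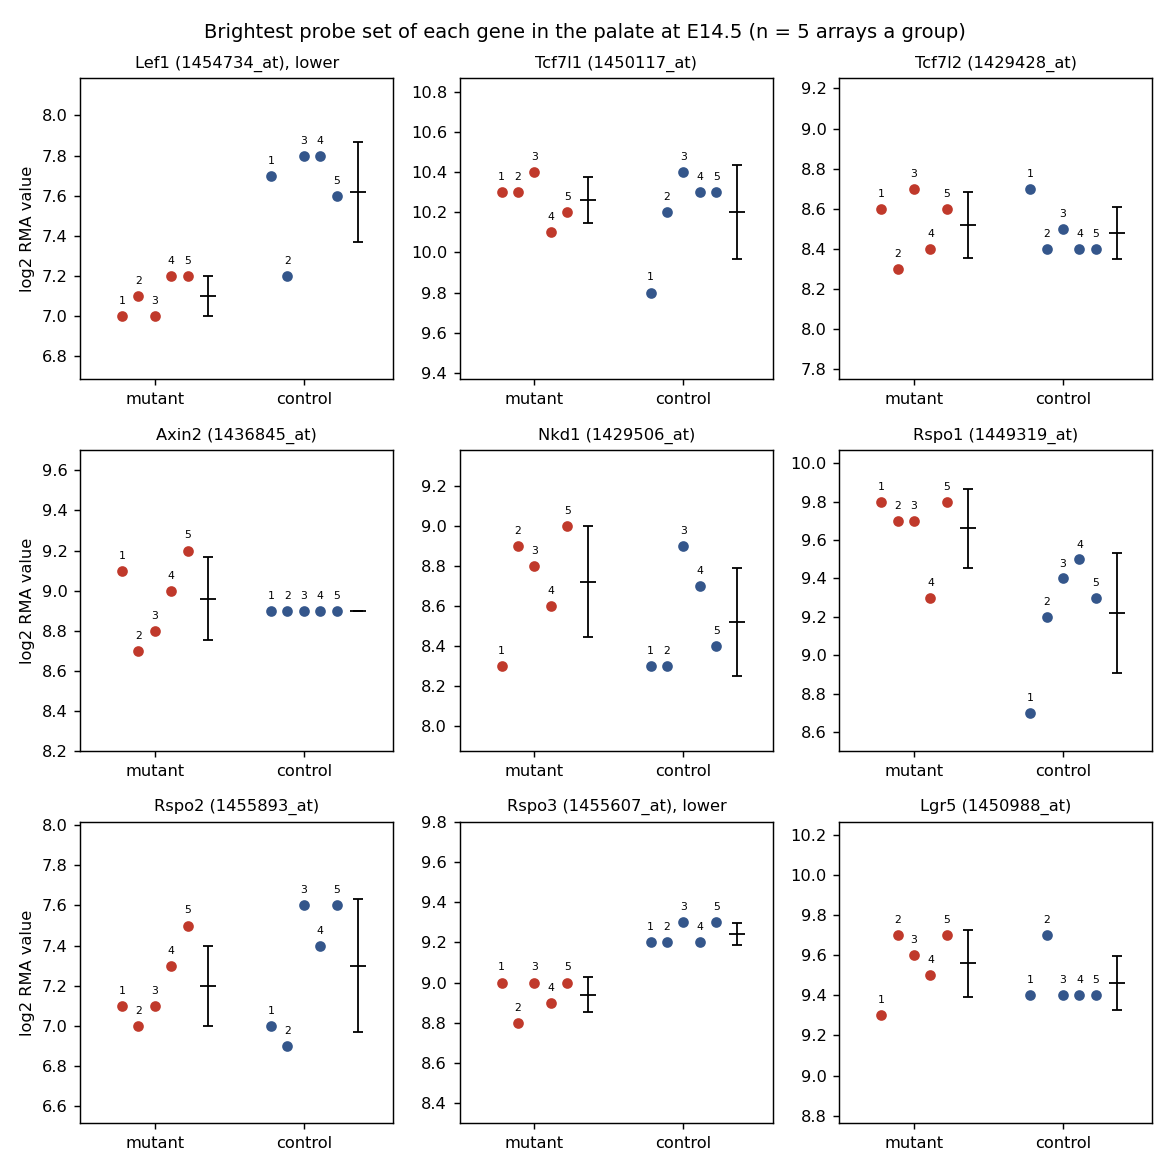
Log2 value (vertical axis) of the brightest probe set of each of the 9 genes in each array, mutant at left in red and control at right in blue, with replicate numbers; bars are the mean and SD of 5 arrays. Rspo3 is the only panel with no overlap, and in Lef1 control replicate 2 sits at 7.2 among the mutants.

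Lef1, a member of the TCF/LEF family that is expressed in dental and oral tissue, was 1.43-fold lower in mutant palate. Its brighter probe set, 1454734_at, read 7.0, 7.1, 7.0, 7.2 and 7.2 in mutant replicates 1 to 5, against 7.7, 7.2, 7.8, 7.8 and 7.6 in control replicates 1 to 5. The 5 mutant arrays lay within 0.2 of each other, and control replicate 2 was the 1 control that met them. The log2 fold change was -0.52 (SE 0.11, 95% confidence interval -0.76 to -0.28, limma adjusted p = 0.0319), and an exact two-sided permutation test of the 10 arrays gave p = 0.0238. The call was lost in 8 of the 10 fits that left out 1 array (limma adjusted p up to 0.0869). It held without control replicate 1 (-0.50, limma adjusted p = 0.0391) and without control replicate 2 (-0.63, limma adjusted p = 0.00363). The other Lef1 probe set, 1421299_a_at, was dim and uncalled, with 4.64 ± 0.25 in mutant and 5.06 ± 0.31 in control arrays (SD, n = 5 each, log2 fold change -0.42, interval -0.77 to -0.07, limma adjusted p = 0.170).

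In bulk tissue, fewer cells that express a gene and less RNA per cell cannot be told apart. Tooth germ, a source of Lef1 transcripts beside the palatal shelves, was followed with 15 measured marker genes, of which 3 were dim. Of the 15, 1 was called lower, none higher, and 10 had a negative log2 fold change. The 5 with a positive one, all uncalled, were Pax9 (0.18), Edar and Fgf4 (0.10 each), Wnt10a (0.04) and Fgf10 (0.02). Msx1 is also in the list of palatal mesenchyme markers, so the list is not of tooth germ alone. The mean level of the 15 ran from 8.10 to 8.18 over the mutants and from 8.01 to 8.55 over the controls. Control replicate 2 had the lowest or tied lowest control value for 12 of the 15 markers. Dlx2, a homeobox gene of the list and its only called member, read 7.4, 7.4, 7.4, 7.3 and 7.6 in mutant replicates 1 to 5, against 8.1, 7.5, 8.5, 8.6 and 8.3 in control replicates 1 to 5, and as for Lef1 the lowest control was replicate 2. With the tooth germ median as a covariate, a setting added after seeing the data, Lef1 fell by 0.34 on the log2 scale and was not called (limma adjusted p = 0.162). None of the 18 epithelial markers was called, but 16 had a positive log2 fold change and 4 an unadjusted p under 0.05. Of these 4, Krt8, Krt18 and Cldn7 were higher and Trp63 was lower (-0.24), and the list median was 0.13. Krt8 and Krt18, keratin genes of simple epithelia, were at 0.56 and 0.48 (limma adjusted p = 0.103 and 0.105). The list had a mean level of 10.17 to 10.47 in mutant and 10.01 to 10.68 in control arrays, and Lef1 was called with their median as a covariate (-0.47, limma adjusted p = 0.0254). That setting called 15% of all probe sets. None of 14 leukocyte markers, T cell genes included, was called, with a mean level of 6.51 to 6.56 in mutant and 6.43 to 6.64 in control arrays. Of these 14, 3 were dim (Cd3g, Cd3d and Cd2), while Cd3e, Cd4 and Cd8a were not. The part of these cells in the Lef1 difference was otherwise not tested.

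By the likeness rule, the genes that followed Lef1 most closely over the 10 arrays were Foxf1 and Cdc25c. After each probe set's own mean was subtracted, Foxf1 differed from Lef1 by 0.056 log2 units on average and Cdc25c by 0.072, among 22878 candidate probe sets. Foxf1 read 8.4, 8.3, 8.2, 8.4 and 8.4 in mutant replicates 1 to 5, against 8.9, 8.2, 9.0, 9.0 and 8.7 in control replicates 1 to 5, and it was not called (-0.42, limma adjusted p = 0.126). Cdc25c was called lower (-0.64, limma adjusted p = 0.00748). Control replicate 2 was the lowest control for both. The 2 genes were chosen for likeness to Lef1 over these same arrays, so this and their lower mutant values follow from the choice.

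The remaining TCF factors showed no called difference. Tcf7l1, which mostly acts as a repressor when beta-catenin is absent, had probe sets at 10.26 ± 0.11 and 10 ± 0.14 in mutant arrays, against 10.20 ± 0.24 and 9.88 ± 0.13 in control arrays (SD, n = 5 each). Their log2 fold changes were 0.06 (interval -0.18 to 0.30) and 0.12 (interval -0.07 to 0.31), so both intervals stayed within a 1.5-fold change. Tcf7l2, the factor best known from the intestine, had 4 probe sets with log2 fold changes between -0.32 and 0.04 and limma adjusted p from 0.567 to 0.889.

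The 4 Tcf7l2 probe sets differed in how they read control replicate 1. Probe set 1429427_s_at gave 7.5, 7.6, 7.5, 7.6 and 7.7 in mutant replicates 1 to 5, against 9.2, 7.8, 7.6, 7.5 and 7.4 in control replicates 1 to 5. Probe set 1425229_a_at gave 6.9, 7.2, 7.1, 6.8 and 7.2 in mutant replicates 1 to 5, against 8.2, 7.0, 7.0, 7.1 and 6.9 in control replicates 1 to 5. In both, control replicate 1 lay at least 1 log2 unit above every other array. In 1429428_at the same array read 8.7, which mutant replicate 3 also reached, and in 1426639_a_at it read 7.5 beside a mutant maximum of 7.4. Without control replicate 1 the log2 fold changes of 1429427_s_at and 1425229_a_at were 0.00 and 0.04, against -0.32 and -0.20 with it. Control replicate 1 also had the highest mean epithelial marker level, 10.68. With the epithelial median as a covariate 1429427_s_at was called lower (limma adjusted p = 0.0241), and the other 3 probe sets were not called. This covariate gave calls for 15% of all probe sets. The part of the epithelium in the Tcf7l2 values was otherwise not tested.

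**Figure D2:**
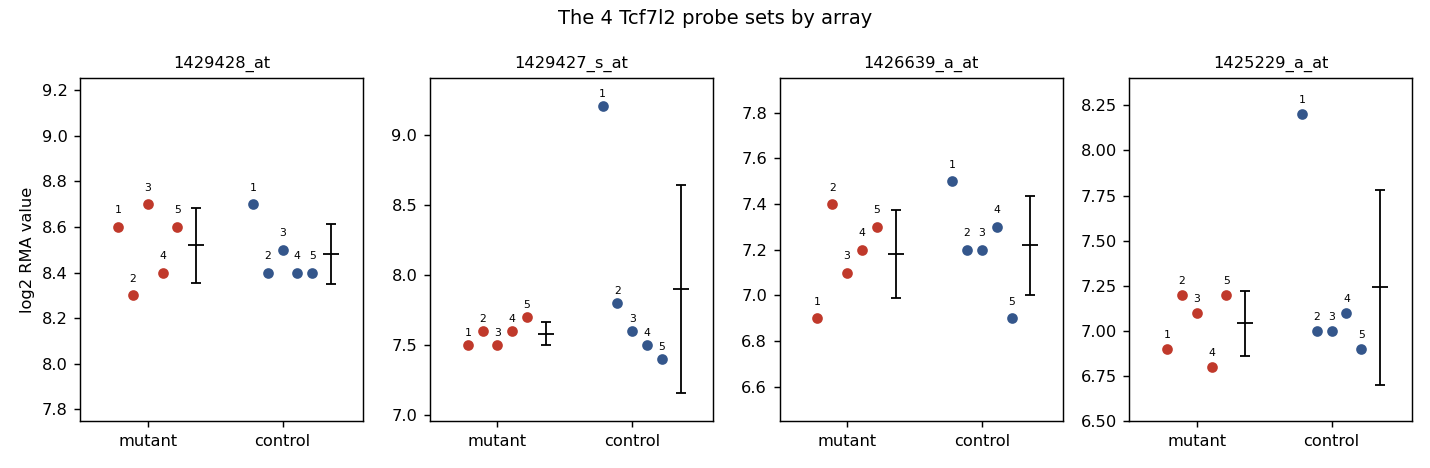
Log2 values (vertical axis) of the 4 Tcf7l2 probe sets in each array, mutant in red at left and control in blue at right, with replicate numbers and the mean and SD of 5 arrays. Control replicate 1 stands at 9.2 and 8.2 in the panels of 1429427_s_at and 1425229_a_at and within 0.1 of the highest mutant array in the others.

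The feedback target genes did not follow Lef1. Axin2, which encodes a scaffold of the beta-catenin destruction complex, read 9.1, 8.7, 8.8, 9.0 and 9.2 in mutant replicates 1 to 5 on its brighter probe set, 1436845_at, against 8.9 in each of the 5 control arrays. The mutant arrays lay on both sides of the control value. The log2 fold change was 0.06 (SE 0.09, interval -0.14 to 0.26, limma adjusted p = 0.753), and that of the dimmer probe set 1421341_at was 0.18 (interval -0.02 to 0.38, limma adjusted p = 0.316). Neither interval reached a 1.5-fold change in either direction.

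Nkd1, which encodes a cytoplasmic inhibitor that binds Dishevelled, had 4 probe sets, all with a positive log2 fold change and none called. The brightest, 1429506_at, read 8.3, 8.9, 8.8, 8.6 and 9.0 in mutant replicates 1 to 5, against 8.3, 8.3, 8.9, 8.7 and 8.4 in control replicates 1 to 5. The groups overlapped along nearly their whole range (0.20, interval -0.13 to 0.53, limma adjusted p = 0.500). Probe set 1440446_at had less spread, at 6.72 ± 0.08 in mutant and 6.52 ± 0.11 in control arrays (SD, n = 5 each). Its interval, 0.05 to 0.35, lay above 0, but it was not called after adjustment (limma adjusted p = 0.143). It was called with the epithelial median as a covariate (limma adjusted p = 0.0386), as were 15% of all probe sets. Probe sets 1417278_a_at and 1429507_at had log2 fold changes of 0.04 and 0.12 (limma adjusted p = 0.832 and 0.343).

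**Figure D3:**
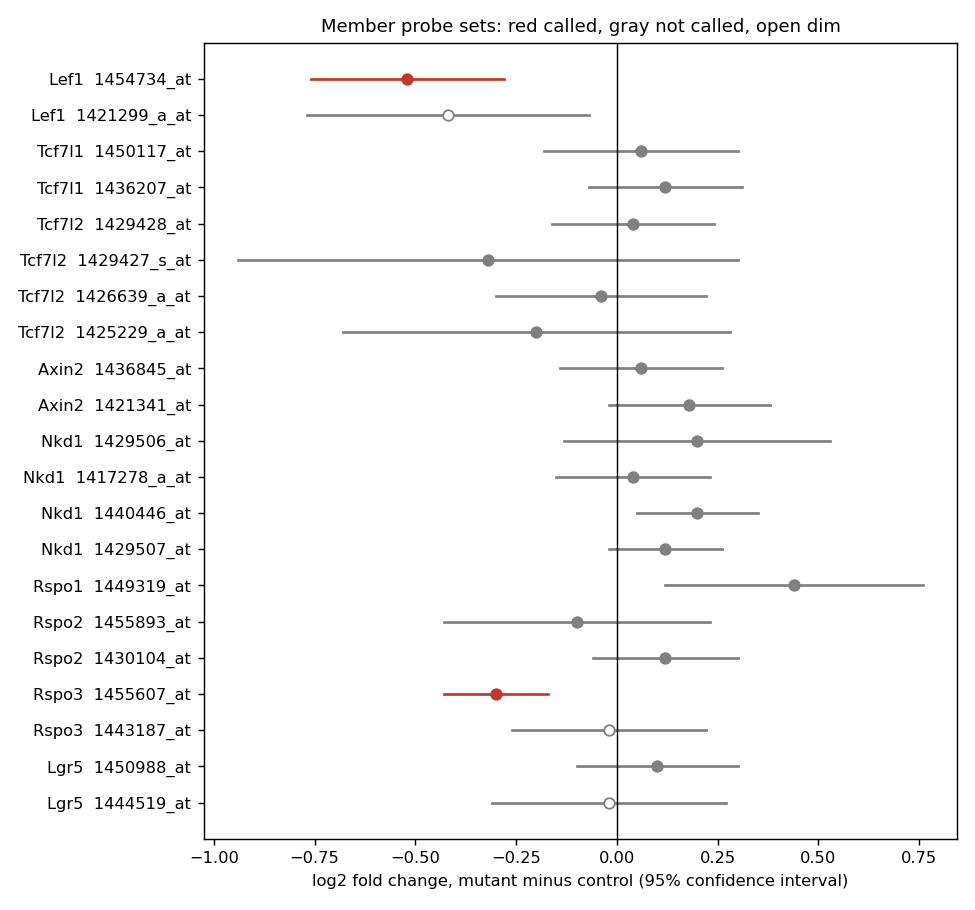
Log2 fold change, mutant minus control (horizontal axis), of each of the 21 probe sets with its 95% confidence interval; red marks the called probe sets, gray the others, and open circles the 3 dim ones. Lef1 and Rspo3 at -0.52 and -0.30 are the called probe sets, and the widest intervals are those of Tcf7l2 1429427_s_at and 1425229_a_at.

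The regions at the starts of Lef1 and Axin2 are shown because these were the changed TCF/LEF gene and the uncalled target gene. Both are RefSeq windows of 300 bases on GRCm38.p6, from 250 bases before to 50 after a start: chr3:131110047-131110346 (+ strand) for the first of 4 Lef1 windows and chr11:108920099-108920398 (+ strand) for Axin2. Capitals mark CTTTG, the core of the TCF/LEF motif, or its complement CAAAG.
Lef1: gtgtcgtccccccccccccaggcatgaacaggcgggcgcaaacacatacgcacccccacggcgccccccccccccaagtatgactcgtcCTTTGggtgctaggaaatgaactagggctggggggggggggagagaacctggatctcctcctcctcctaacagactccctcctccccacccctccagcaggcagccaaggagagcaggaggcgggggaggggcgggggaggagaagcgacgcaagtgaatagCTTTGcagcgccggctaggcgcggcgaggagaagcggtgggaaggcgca
Axin2: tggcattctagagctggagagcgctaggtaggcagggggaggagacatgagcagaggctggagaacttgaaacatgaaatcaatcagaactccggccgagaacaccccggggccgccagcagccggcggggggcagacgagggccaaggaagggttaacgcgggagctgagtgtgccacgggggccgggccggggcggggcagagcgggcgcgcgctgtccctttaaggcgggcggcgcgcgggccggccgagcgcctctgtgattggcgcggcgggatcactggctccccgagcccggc
The Lef1 window held 2 such cores and the Axin2 window 0. Windows were found for 7 of the 10 genes (12 windows). The core was in 53.9% of all 32851 windows on either strand and in 7 of the 12, which belonged to 3 of the 7 genes. The first Lef1 window overlaps the next, and both hold the same cores. The longer form CTTTGAT, which contains the core, was in 3.73% of all windows and in 0 of the 12. The SMAD sequence GTCTAGAC was in 0.213% of all windows and in 0 of the 12. The shorter SMAD sequence CAGACA was in 21% of all windows and in 1 of the 12, the Lef1 window that starts farthest downstream, which held 2 matches. The arrays did not measure binding to these windows.

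Rspo3, which encodes an R-spondin made by mesenchyme and vessels, was 1.23-fold lower in mutant palate, a small change with little spread. Its brighter probe set, 1455607_at, read 9.0, 8.8, 9.0, 8.9 and 9.0 in mutant replicates 1 to 5, against 9.2, 9.2, 9.3, 9.2 and 9.3 in control replicates 1 to 5. The lowest control was 0.2 above the highest mutant array, which is 2 steps of the rounding. The log2 fold change was -0.30 (SE 0.06, interval -0.43 to -0.17, limma adjusted p = 0.0271). A two-sided exact permutation test gave p = 0.00794, the smallest that 5 against 5 arrays can give. The other probe set, 1443187_at, was dim, at 4.54 ± 0.15 in mutant and 4.56 ± 0.21 in control arrays (SD, n = 5 each, log2 fold change -0.02, interval -0.26 to 0.22), and the mean of both probe sets gave -0.16 (limma adjusted p = 0.184). Of 15 palatal mesenchyme markers, 9 had a positive and 5 a negative log2 fold change (median 0.10). Only Tbx22 was called, as higher (0.62, limma adjusted p = 0.0347). Of 12 vessel endothelium markers, 6 were positive and 4 negative (median 0.03). Only Cldn5 was called, as lower (-0.54, limma adjusted p = 0.023). The part of these cells in the Rspo3 difference was not tested.

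By the same likeness rule Rspo3 was followed most closely by Abat and Sulf1, each 0.036 log2 units away on average. Sulf1 encodes an enzyme that edits heparan sulphate outside the cell, and its probe set 1436319_at was called lower (-0.24, limma adjusted p = 0.0485). Abat, the enzyme that breaks down the transmitter GABA, had a log2 fold change of -0.24 and was not called (limma adjusted p = 0.0687). As both genes were chosen for likeness to Rspo3, their lower mutant values follow from the choice.

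Rspo1 had the largest positive log2 fold change of the 21 probe sets and was not called. Its 1 probe set, 1449319_at, read 9.8, 9.7, 9.7, 9.3 and 9.8 in mutant replicates 1 to 5, against 8.7, 9.2, 9.4, 9.5 and 9.3 in control replicates 1 to 5. Mutant replicate 4 lay inside the control range, and control replicate 1 was the lowest array of all. The log2 fold change was 0.44 (SE 0.15, interval 0.12 to 0.76, limma adjusted p = 0.130, exact two-sided permutation p = 0.0317). Without control replicate 1 it was 0.31 (limma adjusted p = 0.124). With the epithelial median as a covariate it was 0.60 and called (limma adjusted p = 0.0110), as were 15% of all probe sets.

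Rspo2, whose loss in mice causes limb, lung and facial defects, read 7.1, 7.0, 7.1, 7.3 and 7.5 in mutant replicates 1 to 5 on 1455893_at, against 7.0, 6.9, 7.6, 7.4 and 7.6 in control replicates 1 to 5. The controls fell into a low pair, replicates 1 and 2, and 3 higher arrays, with the mutants spread between (-0.10, interval -0.43 to 0.23, limma adjusted p = 0.756). Its other probe set, 1430104_at, had a log2 fold change of 0.12 (limma adjusted p = 0.438). The R-spondin receptor gene Lgr5, a marker of Wnt-responsive stem cells in the intestine, read 9.3, 9.7, 9.6, 9.5 and 9.7 in mutant replicates 1 to 5 on 1450988_at, against 9.4, 9.7, 9.4, 9.4 and 9.4 in control replicates 1 to 5. Its log2 fold change was 0.10 (interval -0.10 to 0.30, limma adjusted p = 0.586), with the highest control, replicate 2, at the mutant maximum. The dim Lgr5 probe set 1444519_at gave -0.02 (interval -0.31 to 0.27). Of the 19 uncalled probe sets, 4 had intervals that reach a 1.5-fold change: Lef1 1421299_a_at, Rspo1 and the pair of Tcf7l2 probe sets that control replicate 1 widened.

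The rest of the pathway was described with 1 probe set per gene, the brightest, from lists that together cover ligands, receptors, antagonists, the destruction complex, nuclear cofactors and other target genes. Over all 18194 genes so represented, 3.09% were called lower and 1.48% higher. Among 19 Wnt ligand genes 1 was higher, 1 lower and 17 uncalled (median log2 fold change 0.08). Wnt9a read 6.94 ± 0.055 in mutant and 7.24 ± 0.055 in control arrays (SD, n = 5 each, log2 fold change -0.30, limma adjusted p = 0.0188). Its other probe set, 1425889_at, was dim and uncalled (-0.04, limma adjusted p = 0.842). The mean of both Wnt9a probe sets gave -0.17 and was not called (limma adjusted p = 0.118). Wnt11, which mostly signals without beta-catenin, was higher by 0.32 (limma adjusted p = 0.0455), with control replicate 2 at 8.5 among the mutants. Of the 10 fits without 1 array, Wnt9a was called in 7 (lost without mutant replicates 1, 3 or 5) and Wnt11 in 1 (held without control replicate 2). The Wnt11 call was also lost when arrays were centred on their medians (limma adjusted p = 0.0613), and across all settings 0 to 4 ligand genes were called. Over these settings 0.00443% to 15% of all features tested were called.

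Among 17 genes for Wnt and R-spondin receptors and the ligases that remove them, 1 was lower, none higher and 16 uncalled (median 0.00). The lower gene was Lrp5, which encodes a Wnt coreceptor, and its mean over the 10 arrays, 5.99, was close to the dim limit of 5.76. Lrp5 read 6.0, 5.6, 5.2, 5.2 and 5.7 in mutant replicates 1 to 5, against 6.7, 6.8, 6.7, 5.8 and 6.2 in control replicates 1 to 5. Control replicate 4 lay inside the mutant range (log2 fold change -0.90, SE 0.21, limma adjusted p = 0.0444). The call was lost in 8 of the 10 fits without 1 array, holding without mutant replicate 1 or control replicate 4, and with Eif2s3y as a covariate (limma adjusted p = 0.129). The related coreceptor gene Lrp6 was brighter, with a mean of 9.83 over the 10 arrays, and was not called (-0.02, limma adjusted p = 0.917).

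Of 17 antagonist genes, 3 were higher, 1 lower and 13 uncalled (median 0.04). Across all settings 0 to 6 were called, with the same range of shares over all features as for the ligands. Dkk2, which encodes a secreted protein that binds Lrp coreceptors, was 1.65-fold higher, with 10, 10, 10, 9.7 and 10 in mutant replicates 1 to 5, against 9.3, 9.2, 9.3, 9.1 and 9.2 in control replicates 1 to 5 (log2 fold change 0.72, SE 0.08, limma adjusted p = 0.00218). All mutant arrays lay above all controls. Notum, which encodes an enzyme that inactivates Wnt ligands, was higher by 0.30 (limma adjusted p = 0.0357), and Sfrp4, encoding a secreted Wnt-binding protein, by 0.40 (limma adjusted p = 0.0402). Notum was called in 2 of the 10 fits without 1 array (without mutant replicate 2 or control replicate 1) and Sfrp4 in 1 (without control replicate 3). Notum was also lost on centring (limma adjusted p = 0.0665). Shisa2, whose product holds Wnt and FGF receptors inside the cell, was 1.92-fold lower, at 7.06 ± 0.305 in mutant and 8.0 ± 0.245 in control arrays (SD, n = 5 each, limma adjusted p = 0.0114), and its other probe set was called lower too (limma adjusted p = 0.0465). Dkk2 and Shisa2 were called in 10 of the 10 fits without 1 array. With the skeletal muscle median as a covariate neither was, at 0.57 for Dkk2 (limma adjusted p = 0.183) and -0.62 for Shisa2 (limma adjusted p = 0.405), and Shisa2 was not called with the tooth germ median (limma adjusted p = 0.0836) or the replicate block (limma adjusted p = 0.0634).

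No gene was called by limma on its brightest probe set among 19 of the destruction complex, 24 nuclear cofactors or 23 other genes known to be induced by Wnt signalling, whose medians were -0.02, 0.00 and -0.02. At an unadjusted p under 0.05 there were 2, 6 and 4. With only the brightest probe set of each gene in the fit, 2 cofactors were called, Tle1 among them (limma adjusted p = 0.0425). This fit called 8.26% of all genes. With the mean of each gene's probe sets, 3 cofactors and 1 Wnt-induced gene, Fgf9 (limma adjusted p = 0.0174), were called, beside 7.64% of all genes. The epithelial median as a covariate gave 3 cofactors and 1 destruction complex gene, beside 15% of all probe sets. The smallest p in each list belonged to Dact1, a Dishevelled-binding protein gene (-0.22, limma adjusted p = 0.202), to Tle1, which encodes a corepressor that TCF factors bind (-0.30, limma adjusted p = 0.0749, all mutant arrays below all controls), and to Fgf9, a growth factor gene (-0.24, limma adjusted p = 0.127). A dimmer Fgf9 probe set, 1438718_at, was called lower (limma adjusted p = 0.0216), with 5.9 to 6.4 in mutant and 6.5 to 7.0 in control arrays.

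**Figure D4:**
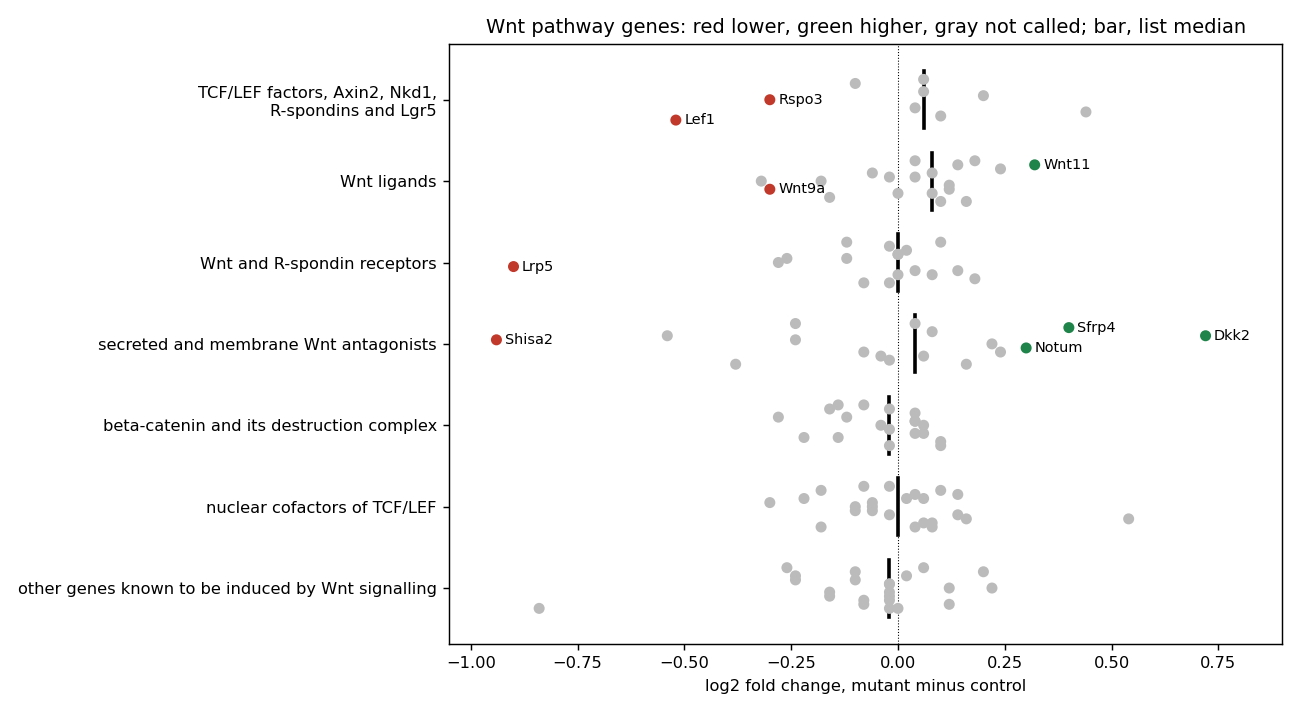
Log2 fold change, mutant minus control (horizontal axis), of the brightest probe set of each gene, by list, with called genes named in red (lower) or green (higher), uncalled genes in gray and the list median as a black bar; vertical scatter within a row has no meaning. The medians lie between -0.02 and 0.08, and Lrp5, Shisa2 and Dkk2 lie farthest from 0 among the called genes.

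The Lef1 and Rspo3 differences lay close to the threshold. Leaving out each array in turn, the log2 fold change of Lef1 ran from -0.63 to -0.48 and that of Rspo3 from -0.31 to -0.26, while limma's adjusted p ran from 0.00363 to 0.0869 and from 0.0243 to 0.0694. Without 1 array, Lef1 was called in 2 of the 10 fits and Rspo3 in 3 of the 10. Rspo3 held without control replicates 1, 2 or 4. Skeletal muscle markers moved with the groups: of 20, 5 were lower, none higher, all 20 had a negative log2 fold change, and their mean level was 5.59 to 7.60 in mutant and 7.39 to 8.89 in control arrays. With the muscle median as a covariate, Lef1 and Rspo3 had log2 fold changes of -0.49 and -0.27 (limma adjusted p = 0.424 for both), and 2 probe sets of the whole array were called. The Y-linked gene Eif2s3y was unevenly spread over the groups, at 9.2, 9.0, 9.3, 9.1 and 5.1 in mutant replicates 1 to 5, against 9.1, 3.2, 3.3, 9.0 and 3.2 in control replicates 1 to 5. Among the 4 mutant and 2 control arrays at 9.0 or above, the differences of means were -0.67 for Lef1 and -0.27 for Rspo3, and with Eif2s3y as a covariate limma's adjusted p was 0.0528 and 0.0861.

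**Figure D5:**
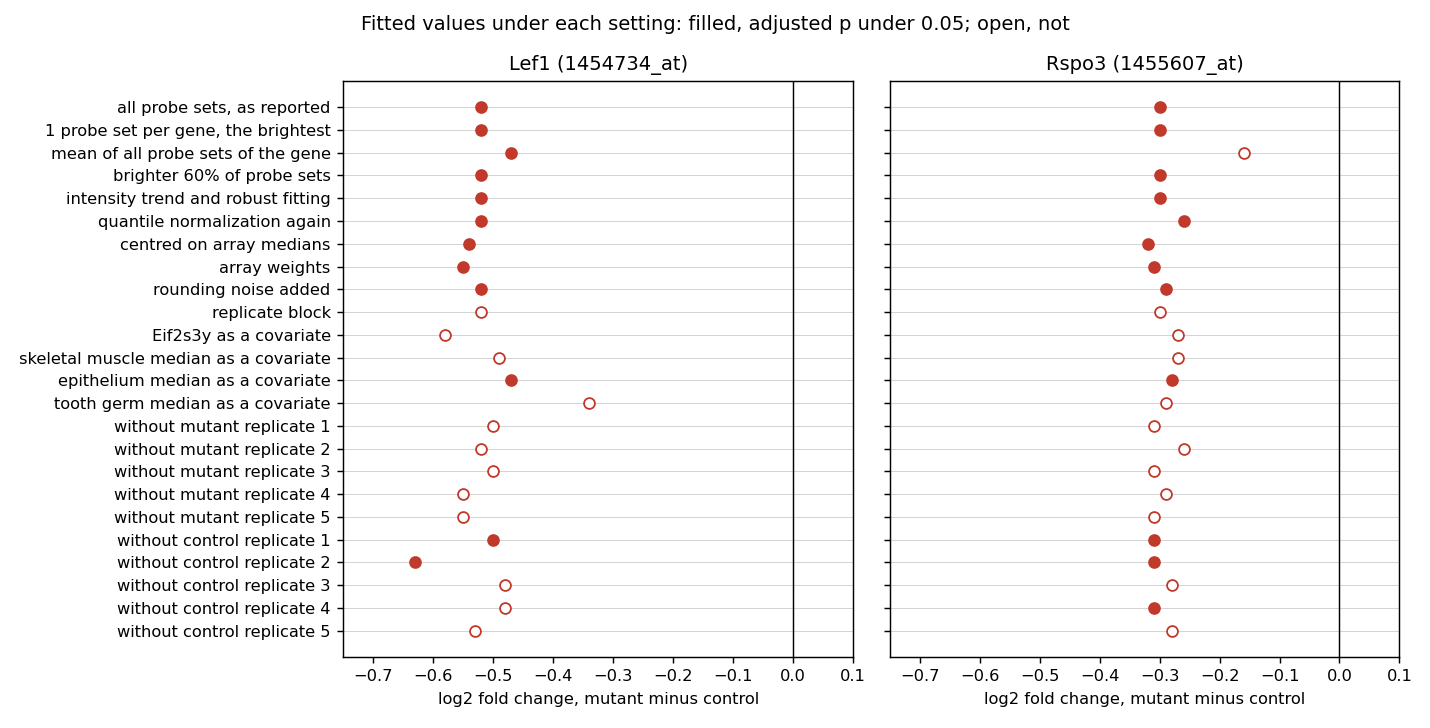
Log2 fold change, mutant minus control (horizontal axis), of the called Lef1 and Rspo3 probe sets under each setting or with each array left out (rows); filled circles have an adjusted p under 0.05 and open circles do not. All values are negative, from -0.63 to -0.34 for Lef1 and from -0.32 to -0.16 for Rspo3.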

How the data were processed

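Palate RNA of 5 mutant and 5 control samples was hybridised to 1-colour Affymetrix arrays, 1 array per sample. The deposited values are log2 values; the authors used RMA, according to the submitters' processing notes. The sources used here name no version, filter, scan batch or genome build. Of 45101 probe sets, 34958 carry 1 gene symbol, 932 several and 9211 none. Symbols were updated by matching Entrez IDs to a RefSeq table (assembly GRCm38.p6), which held 34754 of the 34958, so a former symbol of a member that now names another gene was not taken as that member.

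The limma package (version 3.58.1, under R 4.3.3) fitted mutant minus control to all 45101 probe sets by lmFit and eBayes. No filter or covariate was used, and two-sided p-values were Benjamini-Hochberg adjusted over all of them. Confidence intervals are at 95%. The fit was first tested on simulated data. Exact permutation tests used all 252 divisions of the arrays into 5 and 5. From each pathway list up to 4 called genes were named in order of p, and a list without a called gene gave its 1 gene of lowest p. For each called member, the 2 genes of other names with the smallest mean absolute difference over the arrays were named, among probe sets at or above the 40th percentile. Tcf7 and some genes of the pathway and marker lists were not analysed here. The members and lists were chosen with earlier results of these data known, and the Wnt1, Eif2s3y, Dlx2 and marker values were chosen for mention after they were seen. Alternatives were another choice of probe set, a filter, another normalization or variance model, covariates, a replicate block and leaving out each array.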

Additional observations from a re-analysis of the deposited data

Results flagged for a closer look

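Among groups of 5 arrays, 62 were examined for an array whose gap to its nearest neighbour was more than 0.71 of the group's range, and 8 had one (12.9%), where chance gives about 1 in 20. Values come in steps of 0.1, so in groups with a small range a gap of a few steps is enough. Control replicate 1 was the array in 3 of the 8. It was high for Tcf7l2, at 9.2 on 1429427_s_at (nearest control 7.8) and 8.2 on 1425229_a_at (nearest control 7.1), and low for Nkd1 1429507_at, at 5.9 (nearest control 6.1). Control replicate 2 was high for Lgr5 1450988_at, at 9.7 (nearest control 9.4), and for Wnt11, at 8.5 (nearest control 8.2). Control replicate 3 was low for the dim Lgr5 probe set 1444519_at, at 5.2 (nearest control 5.8). Mutant replicate 4 was low for Rspo1, at 9.3 (nearest mutant 9.7), and for Dkk2, at 9.7 (nearest mutant 10).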

How the results depend on the processing

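Across the whole array 1468 probe sets were called, and 2 of the 21. The counts were 2901 with array weights (2 of the 21), 98 and 0 with the replicate block, 911 and 0 with Eif2s3y as a covariate, 2 and 0 with the skeletal muscle median, 6756 and 5 with the epithelium median, and 257 and 0 with the tooth germ median, which was added after seeing the data. Averaging each gene's probe sets called 1390 of 18194 genes and left 1 member called, Lef1. Leaving out each array in turn gave 464 to 1988 probe sets in all and 0 to 2 of the 21. The 5 called with the epithelium median were Lef1, Rspo1, Rspo3, Nkd1 1440446_at and Tcf7l2 1429427_s_at. With the replicate block limma's adjusted p was 0.0960 for Lef1 and 0.0902 for Rspo3. After each group's mean was subtracted from its arrays, same-numbered mutant and control arrays correlated between -0.0638 and 0.0749. The titles do not say that the numbers pair samples, and they were not taken to do so. An exact permutation test adjusted over all probe sets gave 0.251 for Lef1 and 0.163 for Rspo3. Rspo3 had the smallest exact permutation p that 252 divisions allow, 0.00794. Its 0.163 was thus the lowest adjusted value of any probe set, so this test could call none. Of 477 alternative values for single members, 448 stayed on their side of the threshold, 26 lost a call, 3 gained one and none of those called changed sign. Most of these values belong to uncalled probe sets. The losses were 13 of 24 values for Lef1 1454734_at and 13 of 24 for Rspo3 1455607_at. The causes were not tested. The deposited steps of 0.1 and 5 arrays a group limit what can be seen of changes the size of that in Rspo3.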
